A study of Arabidopsis thaliana with 2 samples.

Results

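Early touch and stress response genes of Arabidopsis, 6 in all, were followed in seedlings that carry a synthetic oxygen sensor: STZ (AT1G27730), WRKY53 (AT4G23810), ORA47 (AT1G74930), AT4G29780, AT4G34150 and PUB19 (AT1G60190). They are 6 of the 13286 loci that could be named from a probe set matching a single gene, among 22746 gene probe sets on the array. Each of the 6 has 1 such probe set. STZ, ORA47 and PUB19 lie on chromosome 1, and WRKY53, AT4G29780 and AT4G34150 on chromosome 4. The genes were picked with the differences between the 2 arrays in view, so those differences are a description and were not tested.

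RNA came from untreated Col-0 seedlings, 7 days old, grown on MS medium with sucrose, and each of 2 genotypes had 1 Affymetrix array. The double expressor carries the fusion proteins labelled AD-HIFCOOD and GBD-pVHL, and the triple expressor carries these fusions and PHD3. In animals HIF switches on genes at low oxygen, and PHD3, an oxygen-dependent enzyme, hydroxylates HIF so that pVHL can bind it. Plants were genotyped singly before RNA extraction. The sources used here name no promoter and no number of lines or of pooled seedlings, and the comparison holds no seedlings without transgenes. The transgenes themselves were not analysed here, so the genotype labels were not checked against the arrays.

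When a plant is touched, wounded, chilled or exposed to salt, calcium enters the cytosol within moments and a set of genes is switched on within minutes and off again soon after. Many of these genes encode transcription factors, calcium-binding proteins and ubiquitin ligases that shape the later response to stress, jasmonate and abscisic acid.

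In the triple expressor 5 of the 6 genes had a higher signal than in the double expressor and 1, PUB19, had a lower one; over all gene probe sets 49.5% were higher and 48.8% lower. The 5 higher genes differed by 0.80 to 1.14 on the log2 scale, and PUB19 differed by -1.18. The median difference of the 6 was 0.96, and that of all gene probe sets was 0.0. Each genotype has a single array, so the spread between replicates is unknown and each difference compares these 2 arrays only. Counts were made where the brighter array was at or above a log2 signal of 5.71, the 40th percentile of all gene probe set values, called the floor here. On this count 3 of the 6 genes passed 2-fold upward and 1 passed it downward, as did 0.201% and 0.0575% of all gene probe sets. At 1.5-fold the 6 genes gave 5 higher and 1 lower, and all gene probe sets 1.53% and 0.547%. WRKY53 and ORA47 reached the floor on the triple array only and PUB19 on the double array only, so each entered through its brighter array. The genes were chosen on this contrast, so their counts are not set against those shares.

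**Figure D1:**
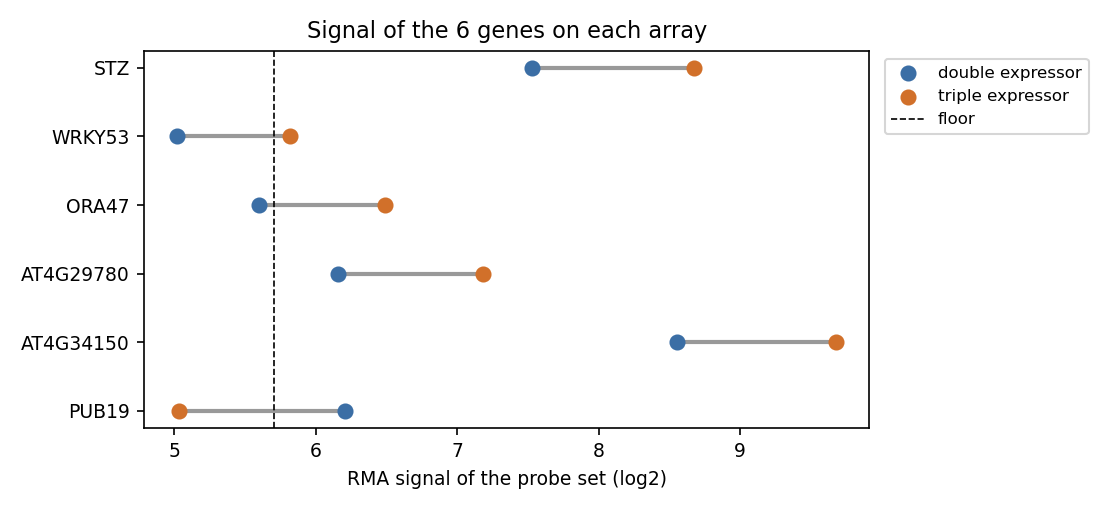
RMA signal (log2) of the probe set of each of the 6 genes, with 1 point per array, the double expressor in blue and the triple expressor in orange; the dashed line is the floor of 5.71. STZ, AT4G29780 and AT4G34150 lie above the floor on both arrays, and WRKY53, ORA47 and PUB19 cross it.

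The transcription factor genes were all higher in the triple expressor. STZ, also called ZAT10, encodes a zinc finger repressor that is induced by salt, cold, strong light and wounding. Its log2 signal was 7.53 on the double array and 8.67 on the triple array, or 185 and 408 without the log, which is 2.21-fold. Both values lay above the floor. Of 3350 gene probe sets with a mean signal within 0.5 of its own on the log2 scale, STZ itself was the only 1 that was higher by that much, and differences from the 5th to the 95th percentile there ran from -0.30 to 0.37. Among the 7421 named loci above the floor its difference ranked 4 from the top. STZ was chosen on this contrast, so an extreme place among probe sets of like signal and in this ranking follows from that choice. The same holds for the places of the other genes given below. These places are a description, and no conclusion is drawn from them.

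WRKY53 encodes a WRKY factor that regulates leaf senescence and defence. Its log2 signal was 5.02 in the double expressor, below the floor, and 5.82 in the triple expressor, just above it. The difference was 0.80, or 1.74-fold, and it corresponds to 32.5 and 56.5 without the log. In that range of signal 17 of 2235 probe sets, WRKY53 included, were higher by at least as much. ORA47 encodes an ERF-type factor of the DREB group that is induced by jasmonate and activates genes of jasmonate and abscisic acid synthesis. Its log2 signal was 5.60 on the double array and 6.49 on the triple array, and these values also lie on either side of the floor. The difference was 0.89, or 1.85-fold, and 13 of 2712 probe sets of like signal, ORA47 included, were higher by at least as much. Neither WRKY53 nor ORA47 reached 2-fold.

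AT4G34150 and AT4G29780 encode proteins whose roles are less well described. AT4G34150 encodes a small protein with a C2 domain, a fold that binds lipids and calcium. Its log2 signal was 8.56 on the double array and 9.68 on the triple array, or 377 and 820 without the log, which is 2.18-fold. Of 2093 probe sets of like signal, 2 were higher by at least as much, AT4G34150 included. AT4G29780 encodes a nuclease-like protein related to plant transposases, and its transcript responds to many stresses. Its log2 signal was 6.16 on the double array and 7.18 on the triple array, above the floor on both arrays. The difference of 1.02, or 2.03-fold, lay at the 2-fold line, and 11 of 3360 probe sets of like signal, AT4G29780 included, were higher by at least as much.

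PUB19 was the only 1 of the 6 that was lower in the triple expressor. It encodes a U-box ubiquitin ligase that, with its close relative PUB18, restrains responses to abscisic acid and drought. Its log2 signal was 6.21 in the double expressor, above the floor, and 5.03 in the triple expressor, below it. Without the log these are 74.1 and 32.7, a 2.26-fold lower signal. Of 2372 probe sets of like signal, 2 were lower by at least as much, PUB19 included. Its difference ranked 2 from the bottom among the named loci above the floor, a ranking that it entered through the double array only.

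**Figure D2:**
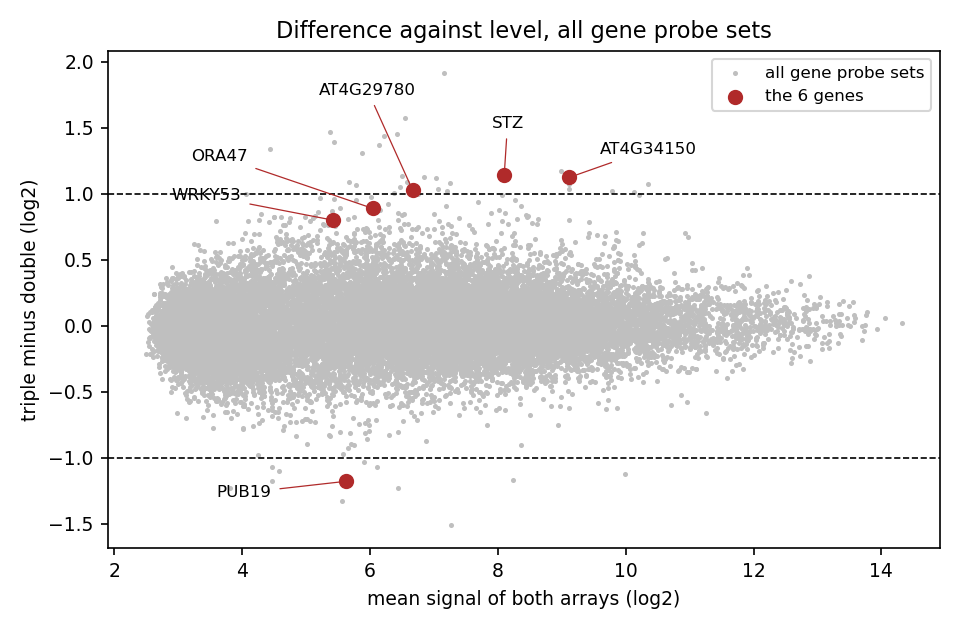
Difference between the triple and the double expressor (log2) against the mean signal of both arrays (log2) for 22746 gene probe sets in grey and the 6 genes in red; the dashed lines mark 2-fold. Among the 5 higher genes, STZ and AT4G34150 lie farthest from the other probe sets of their signal. The spread of all probe sets is wider at low signal, where WRKY53, ORA47 and PUB19 lie. The 6 genes were picked with their differences in view.

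Differences scattered more among dim probe sets. The SD of the differences of probe sets within 0.5 of the gene's mean signal was 0.19 for AT4G34150 and 0.21 for STZ, against 0.24 for AT4G29780, 0.27 for ORA47 and 0.29 for PUB19 and WRKY53. This SD is taken across probe sets and is no replicate error. Adding 32 to the unlogged values before the log damps differences of dim probe sets. STZ was then 1.02 higher and AT4G34150 1.06, both still past 2-fold. These were then the only 2 of the 6 genes past it, with 2 higher and 0 lower. The differences of AT4G29780, ORA47 and WRKY53 became 0.78, 0.60 and 0.46, and that of PUB19 became -0.71. The direction of all 6 was kept under every scaling tried, but none of these could turn it. Adding 32 keeps the order of the values on the arrays, and the centrings shift differences by only -0.03 to 0.04. Centring each array on its median, which shifts every difference by -0.03, took AT4G29780 to 0.99, and centring on a lowess curve took it to 0.9996, both just under 2-fold.

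**Figure D3:**
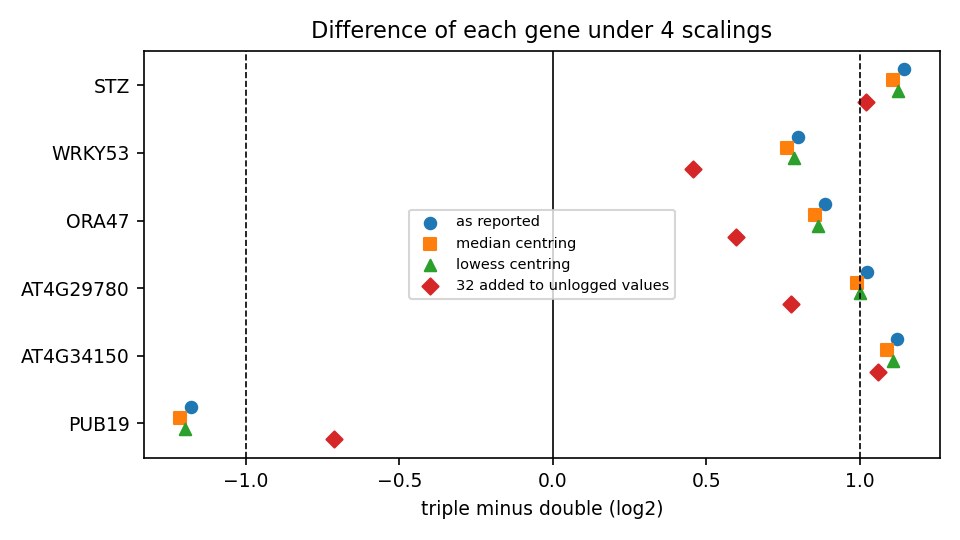
Difference between the triple and the double expressor (log2) of each of the 6 genes as reported, after centring on the median or on a lowess curve, and with 32 added to the unlogged values; dashed lines mark 2-fold. STZ and AT4G34150 stay past 2-fold under the 4 scalings, and all 6 move toward 0 when 32 is added, WRKY53, ORA47, AT4G29780 and PUB19 the most.

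Few relatives of the 6 genes could be named. A named probe set was had for 6 of 67 WRKY symbols of RefSeq, 1 of them WRKY53, which was chosen on this contrast. The other 5 were all higher in the triple expressor, with a median difference of 0.16. Before centring, 49.5% of all gene probe sets were higher. After median or lowess centring 4 of these 5 WRKY genes were higher, when WRKY47 was at -0.01. The share of all gene probe sets after centring is not given here. WRKY22, a factor of defence signalling, was 5.57 on the double array and 6.31 on the triple array, a 1.67-fold difference close to that of WRKY53. WRKY20 differed by 0.36, WRKY6, a factor of senescence, by 0.16, and WRKY47 by 0.02. WRKY42, below the floor on both arrays, differed by 0.09. WRKY53 and WRKY22 were the only 2 of the 6 past 1.5-fold. Both lay below the floor on the double array and above it on the triple array, so each entered through its brighter array. With 32 added to the unlogged values WRKY53 differed by 0.46 and WRKY22 by 0.49, both under 1.5-fold. Above the floor 1.53% of all gene probe sets were past 1.5-fold upward and 0.547% downward.

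The measured relatives of PUB19 went both ways. Of 22 PUB symbols 9 had a named probe set, 1 of them PUB19, which was chosen on this contrast. The other 8 were 4 higher and 4 lower in the triple expressor, near the 49.5% and 48.8% of all gene probe sets. Their median was 0.03, and none of these 8 was past 1.5-fold above the floor. Of all gene probe sets above the floor, 1.53% passed 1.5-fold upward and 0.547% downward. PUB22 and PUB23, ubiquitin ligases that dampen immune signalling, differed by 0.12 and -0.05. PUB24, which acts with them, was lower by 0.50 on the log2 scale but below the floor on both arrays, at 4.70 and 4.19. PUB26 differed by 0.10, PUB49 by 0.15 and PUB43 by -0.06. PUB18 is not analysed here.

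The 4 measured relatives of ORA47 all lay below the floor on both arrays. TINY2, a DREB factor, was at 5.42 on the double array and 4.70 on the triple array, a difference of -0.72 in the opposite direction to ORA47. AT1G22810 (ERF019), AT1G77640 (ERF013) and AT1G19210 (ERF017) differed by -0.27, -0.13 and 0.11. These 4 were found by locus code. A search by RefSeq symbol for further ERF and DREB genes found none beside ORA47 with a named probe set, and the search for ZAT and AZF symbols found none beside STZ.

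Calcium signals act before the early genes. Of 7 measured calmodulin-like CML genes 6 were higher and 1 lower in the triple expressor, and the median was 0.32. After median centring these counts were 5 and 2, when CML43 was at -0.01. Only 4 of the 7 lay above the floor. Before centring, 49.5% of all gene probe sets were higher and 48.8% lower, and the share after centring is not given here. Above the floor 1.53% of all gene probe sets were past 1.5-fold upward. CML38, a touch-induced gene, was at 5.72 on the double array and 6.60 on the triple array, a 1.84-fold difference, and was the only 1 past 1.5-fold above the floor. CML42 differed by 0.38, CML30 by 0.32 and CML43 by 0.03. The other touch genes measured, CML37 at 0.04 and CML39 at -0.22, lay below the floor. The calmodulin-binding transcription activators CAMTA4, CAMTA5 and CAMTA6 (AT1G67310, AT4G16150 and AT3G16940), of the family that switches on early stress genes, differed by -0.12, 0.17 and -0.16. FER, a receptor kinase that senses the cell wall, differed by 0.18. The senescence gene SAG101 differed by 0.07 below the floor.

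In all, 14 of the 112 loci in the pathway lists beside the 6 genes were measured, 8 of them higher and 6 lower, and their median was 0.05. These counts lie near the 49.5% higher and 48.8% lower of all gene probe sets. Of the 14 loci 7 lay above the floor, and 2 of these, CML38 and EXO, were past 1.5-fold upward. All gene probe sets above the floor gave 1.53% past it upward and 0.547% downward. The lists were chosen with earlier results of these data known, so no conclusion is drawn. EXO, a gene of growth promoted by brassinosteroid, was at 9.28 on the double array and 10.30 on the triple array, a difference of 1.02, or 0.99 after median centring. None of the listed genes of jasmonate synthesis, jasmonate repressors, abscisic acid response, the ZAT and AZF repressors or the 36 further rapid stress regulators had a named probe set. Known targets of ORA47 were therefore not analysed here, and protein targets of PUB19 are not read by an RNA array.

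Relatives chosen after their values were seen are SRC2, AT4G27280 and AT5G12010. SRC2, a C2-domain protein as is AT4G34150, was at 9.92 on the double array and 10.62 on the triple array, a 1.62-fold difference. AT4G27280, a calcium-binding protein gene, was at 9.50 and 10.21, a 1.63-fold difference. AT5G12010, the relative of AT4G29780, was at 6.95 and 7.02 and differed by 0.08.

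**Figure D4:**
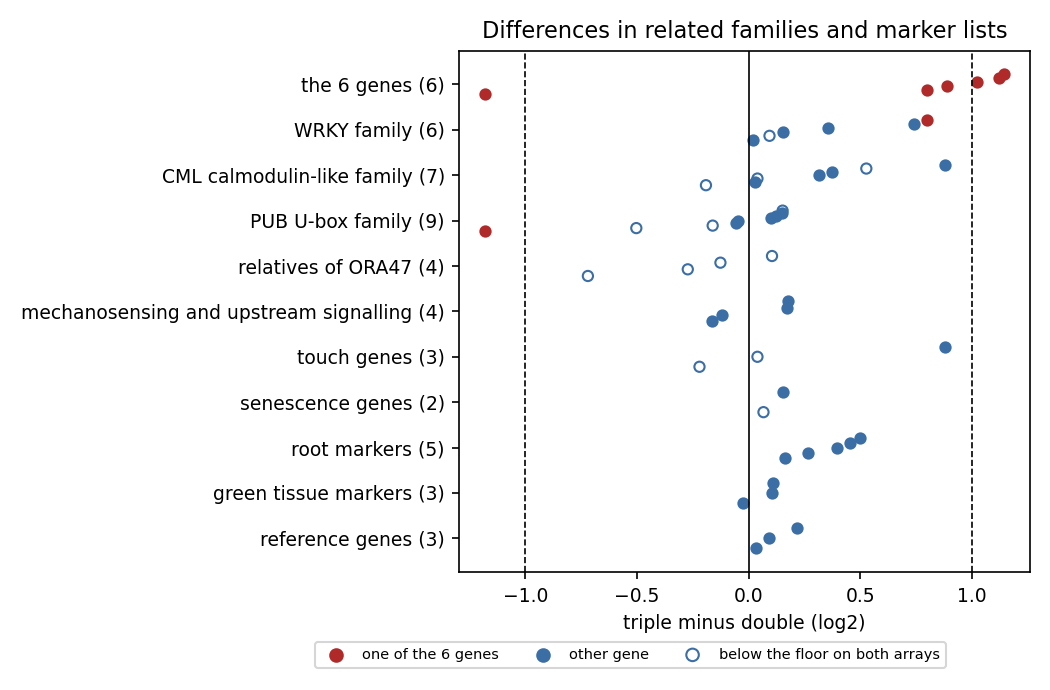
Difference between the triple and the double expressor (log2) of each measured gene, by list, with the number measured in brackets; red points are the 6 genes, open circles lie below the floor on both arrays and dashed lines mark 2-fold. All 5 root markers lie above 0, as do the 5 WRKY genes beside WRKY53 before but not after median or lowess centring. Before centring, 49.5% of all gene probe sets lie above 0. PUB19 lies apart from the other PUB genes, which follows from its choice on this contrast. The 6 genes were picked with their differences in view.

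Other genes with a like pair of levels were sought among 7350 named nuclear loci above the floor, by the distance between the log2 signals on the 2 arrays. With 2 arrays this likeness rests on 2 values per gene. STZ was nearest to AT4G36430 and AT5G19240, which differed by 0.85 and 0.95. WRKY53 was nearest to AT4G25790, at 0.70, and AT1G05575, at 0.96. ORA47 was nearest to AT3G53370, at 0.97, and AT1G22890, at 0.80. AT4G29780 was nearest to AT1G72920, at 1.00, and AT2G24600, at 0.77. AT4G34150 was nearest to AT1G06640, at 1.04, and the dehydrin gene LTI30, at 0.63. PUB19 was nearest to AT1G01670, which differed by -1.32, and AT1G73120, at -0.97.

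The neighbours of the 6 genes in gene order differed less than the genes themselves. The 6 genes were picked with their differences in view, and the neighbours by position alone. Smaller differences among the neighbours therefore follow from that choice, and no conclusion is drawn from them. Of the 60 measured loci closest to the 6 genes, 5 on each side, 34 were higher and 24 lower in the triple expressor. Before centring, as in this count, 49.5% of all gene probe sets were higher and 48.8% lower. The median of the neighbours was 0.02, and after median centring 25 of them were higher and 35 lower. The share of all gene probe sets after centring is not given here. Counted without a floor, 0 neighbours were past 1.5-fold, so 0 were past it above the floor as well. Of all gene probe sets above the floor, 1.53% were past it upward and 0.547% downward. Around STZ the neighbours differed by -0.37 to 0.29, and 7 of 10 were lower. Around WRKY53 they differed by -0.06 to 0.12. Around ORA47 the range was -0.31 to 0.25, around AT4G29780 -0.24 to 0.42 and around AT4G34150 -0.28 to 0.27. Around PUB19 it was -0.25 to 0.16, with 5 higher and 5 lower.

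**Figure D5:**
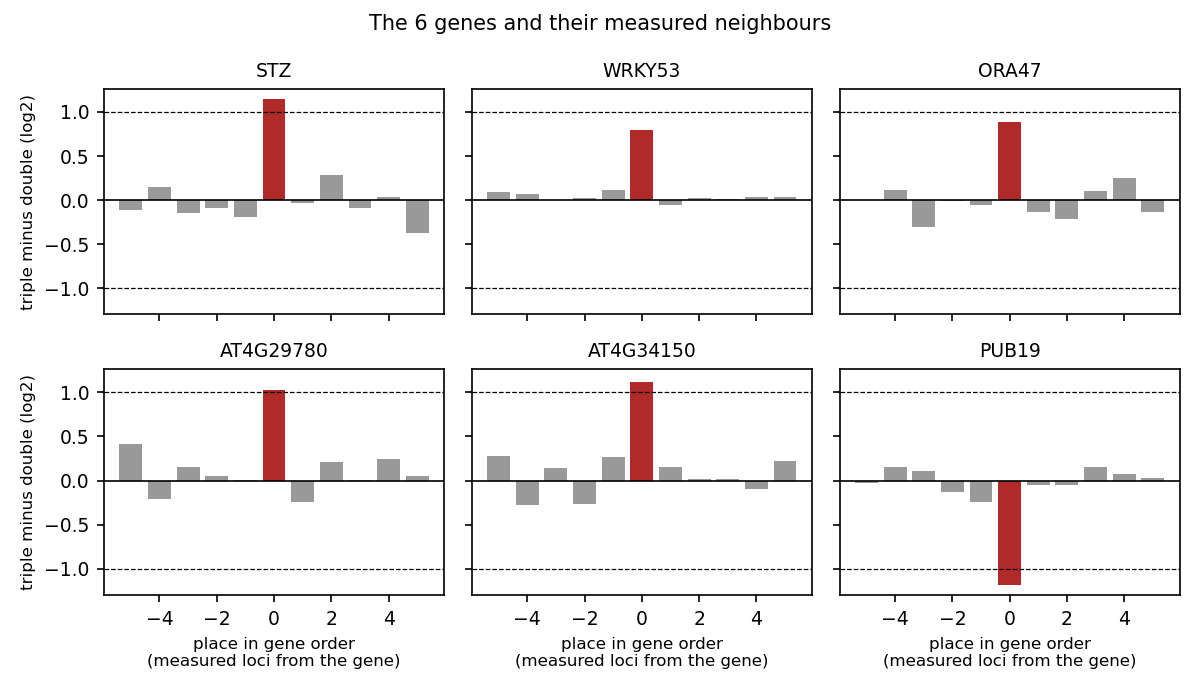
Difference between the triple and the double expressor (log2) of each of the 6 genes (red, at 0) and of the 5 measured loci on each side in gene order (grey); dashed lines mark 2-fold. No neighbour is as far from 0 as the gene it stands beside, and the 6 genes were picked with their differences in view.

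Markers of the tissues in a seedling were measured on the same arrays. Root markers, 5 of 5 measured, were higher in the triple expressor by 0.16 to 0.50, with summed unlogged signals of 8330 and 9483. Of all gene probe sets 49.5% were higher and 48.8% lower. Green tissue markers, 3 of 5 measured, differed by -0.03 to 0.11, with sums of 24175 and 25352. Stomatal lineage markers, 3 of 3, differed by 0.02 to 0.23. Seed markers, 2 of 4 measured, lay below the floor, with ICL at 5.37 and 4.66, a difference of -0.71, and PAP85 at 0.18. In RNA of whole seedlings a larger share of a tissue and more RNA per cell cannot be told apart, and the part of the root markers' difference in that of the 6 genes was not tested. The 18 hybridisation controls had a median difference of 0.16, with 15 higher and 3 lower on the triple array, the contrast of 3′ to 5′ control probe sets moved by -0.14 to 0.03, and the 3 reference genes measured differed by 0.04 to 0.22.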

How the data were processed

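The deposited table holds log2 values for 22810 probe sets on 2 arrays, computed by the authors using RMA (per the submitters' processing notes, which name no version), and the log2 scale was read from the values, 2.39 to 14.3. RMA sets the arrays on 1 distribution, so a shift common to most genes is lost. The 64 control probe sets were left out. Of the rest, 13513 name 1 gene in the platform annotation, which can be old, 503 name several and 8730 are unnamed here. RefSeq genes were matched by 13436 of the single-gene probe sets, in a table of the TAIR10.1 assembly. The brightest probe set stood for a locus. Groups came from the sample titles.

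Each difference is triple minus double. No model was fitted with 1 array per genotype. Precision is limited by the number of arrays. The members and lists were chosen with earlier results of these data known. The text names all members, up to 4 loci per list by size of difference among those above the floor (any locus where fewer than 3 are above it), and 2 loci nearest in level to each member. WRKY42, WRKY47, PUB23, PUB24, PUB43, SRC2, AT4G27280 and AT5G12010 fall outside the rule and were added with their values known. Alternatives were median and lowess centring (span 0.3), 32 added to unlogged values, other floors, a 1.5-fold threshold, averaging the probe sets of a locus, and dropping probe sets marked by name as cross-hybridising. The counting was tested on simulated data, with changes larger than those of the members and placed well above the floor. That test does not cover genes that cross the floor, such as WRKY53, ORA47 and PUB19. Python 3.11.15, numpy 2.4.6, pandas 2.3.3, statsmodels 0.14.6 and matplotlib 3.10.9 were used.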

Additional observations from a re-analysis of the deposited data

How the results depend on the processing

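No alternative turned the direction of any of the 6 genes, and none could. Median centring shifts a difference by -0.03 and lowess centring by -0.03 to 0.04, against 0.80 for WRKY53, the smallest of the 6. Adding 32 keeps the order of the values on the arrays, and floors and thresholds do not touch it. The kept direction therefore says nothing about stability. Averaging the probe sets of a locus and the removal of cross-hybridising probe sets changed none of the 6, since each has 1 probe set not so named, and say nothing about stability. With 32 added to the unlogged values the differences were 0.46 for WRKY53, 0.60 for ORA47, 0.78 for AT4G29780 and -0.71 for PUB19, the median of the 6 was 0.69 in place of 0.96, and 0 members were past 2-fold lower in place of 1. Over all gene probe sets, 9 were then higher and 3 lower by 2-fold in place of 28 and 8. A floor at the 60th percentile left 0 members lower, 16 probe sets higher and 3 lower, and a 1.5-fold threshold gave 5 members higher, 213 probe sets higher and 76 lower, by construction. Median and lowess centring left 2 members past 2-fold higher in place of 3, without AT4G29780. Median centring took the median of the other PUB genes from 0.03 to -0.01. No floor gave 12 probe sets lower in place of 8. Of 90 recomputed list medians 84 moved by less than 0.1 on the log2 scale and the other 6 moved under the added 32. Averaging probe sets and dropping cross-hybridising ones left every list median as it was, so these say nothing about stability. The CML list was entered with and without members though it holds none. The ERF and DREB list holds only ORA47, and the ZAT and AZF list only STZ. Leaving out a replicate could not be done. No paired analysis was possible because there is a single array for each genotype.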
